A study of Homo sapiens with 15 samples.

Results

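The genes described here are the heat shock proteins and J-domain chaperones, taken as every gene whose single symbol in the platform annotation belongs to the HSPA (HSP70 and HSP110), HSPB (small heat shock protein), HSP90, HSPD1, HSPE1, HSPH1, DNAJA, DNAJB or DNAJC families. The rule found 65 genes among the 19775 with a single symbol, represented by 162 probe sets, and each gene was read from the probe set with the highest mean signal over the 15 arrays. The inducible HSP70 genes HSPA1A and HSPA1B and the constitutive HSP70 gene HSPA8 are not among them, because their probe sets carry several symbols. Total RNA was hybridised to Affymetrix arrays from IMR32, an established human neuroblastoma cell line that had been transfected with an inducible MSX1. MSX1 is a homeodomain transcription factor. The arrays fell into 5 groups of 3. All groups carried the inducible MSX1. They were cells at t = 0, then cells given doxycycline and sampled at t = 8, t = 24 or t = 48 (induced cells), and finally cells kept without doxycycline until t = 48 (control cells). The labels give no unit of time, no promoter and no word on whether the line was 1 clone. They describe triplicate time courses but do not say that replicates were separate cultures. The spread behind the p-values is therefore that of these samples alone and could be technical. Control cells were arrayed at t = 48 alone, so at t = 8 and t = 24 the effect of induction and that of time in culture cannot be told apart. Cells treated with doxycycline but lacking the MSX1 construct were not analysed here.

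HSP70 proteins bind exposed hydrophobic stretches of client proteins in cycles of ATP hydrolysis. J-domain proteins, the DNAJ genes, deliver clients and stimulate that hydrolysis, and HSP110 proteins act as nucleotide exchange factors that reset the cycle. HSP90 acts later, on near-native kinases and receptors, HSPD1 with HSPE1 forms the folding chamber of the mitochondrial matrix, and small heat shock proteins hold unfolding clients without ATP. Many cytosolic chaperone genes are targets of heat shock factor HSF1, and chaperones of the endoplasmic reticulum are targets of the unfolded protein response. Among J-domain proteins the DNAJC class is the most varied, since its members share little beyond the J-domain and many serve 1 compartment or 1 client.

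The probe set for MSX1 had a mean signal of 165.3 in induced cells at t = 24 against 110.9 at t = 0 (log2 difference 0.55, limma adjusted p = 0.0299), and of 83.2 in induced against 50.7 in control cells at t = 48 (0.65, adjusted p = 0.0163). It was lower in control cells at t = 48 than at t = 0 (−1.05, adjusted p = 0.005). From t = 24 to t = 48 in induced cells MSX1 was also lower, by −0.96, at a limma adjusted p under 0.05. Against t = 0 the induced cells differed by 0.51 at t = 8 and by −0.40 at t = 48. Neither passed that threshold, and each had an unadjusted p under 0.05. The spiked hybridisation control bioC read 122.2 on induced t = 24 replicate 1 and 138.5 on induced t = 48 replicate 3, against 495.2 to 600.4 on the other arrays. Of 11 neuroblastoma markers with a probe set 10 passed the filter on low signals, PHOX2A, GATA3 and MYCN among them, while TH did not. Summed over that list, signals were 11839 to 12744.3 at t = 0, 11084.8 to 11790.1 at t = 8, 12480.5 to 13069.8 at t = 24 and 12509.3 to 14049.7 at t = 48 in induced cells, and 11888.3 to 12454.6 in control cells. In these bulk samples, fewer cells of a type and less RNA per cell cannot be told apart.

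The promoters of these genes were read from the RefSeq table of build GRCh38.p14, in windows of 250 bases before and 50 after each listed transcript start, which held 78 windows for 59 of the 65 genes. They were searched on both strands for a heat shock element, GAANNTTCNNGAA, the site read by heat shock factors, and for the endoplasmic reticulum stress element, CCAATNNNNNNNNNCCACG, the site of the unfolded protein response. The heat shock element stood in 6 of the 78 windows (7.69 percent), against 172 of all 35116 windows (0.49 percent). The stress element stood in 2 of the 78 (2.56 percent), against 27 of all windows (0.0769 percent). The windows with a heat shock element belonged to DNAJA1, DNAJB6, HSP90AA1, HSP90AB1, HSPD1 and HSPA6, and those with a stress element to HSPA5 and HSP90B1. No match says only that these letters are not in the window. The upstream 250 bases of 5 genes are shown because these genes come up below on both sides, HSPA5 and HSP90B1 among those lower at t = 24 and the others among those that passed no test. Capitals mark the element.
HSPA5, chr9:125241344-125241593, minus strand: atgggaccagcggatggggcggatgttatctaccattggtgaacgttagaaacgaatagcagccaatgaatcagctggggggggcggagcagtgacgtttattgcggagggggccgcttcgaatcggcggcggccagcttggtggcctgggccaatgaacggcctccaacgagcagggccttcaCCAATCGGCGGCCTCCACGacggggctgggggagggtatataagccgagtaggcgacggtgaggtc
HSP90B1, chr12:103930160-103930409, plus strand: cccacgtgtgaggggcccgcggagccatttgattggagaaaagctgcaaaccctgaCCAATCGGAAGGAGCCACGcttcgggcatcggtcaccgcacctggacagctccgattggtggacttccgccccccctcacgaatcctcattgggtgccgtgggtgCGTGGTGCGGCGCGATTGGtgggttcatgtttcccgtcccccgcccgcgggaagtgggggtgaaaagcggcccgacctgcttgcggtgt
HSP90AA1, chr14:102087045-102087294, minus strand: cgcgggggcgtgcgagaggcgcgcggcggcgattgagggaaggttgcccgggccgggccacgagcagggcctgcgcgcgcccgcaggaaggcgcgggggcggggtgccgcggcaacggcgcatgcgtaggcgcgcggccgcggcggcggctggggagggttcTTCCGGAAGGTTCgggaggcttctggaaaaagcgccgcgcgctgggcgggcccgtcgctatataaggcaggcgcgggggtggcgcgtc
HSP90AB1, chr6:44247693-44247942, plus strand: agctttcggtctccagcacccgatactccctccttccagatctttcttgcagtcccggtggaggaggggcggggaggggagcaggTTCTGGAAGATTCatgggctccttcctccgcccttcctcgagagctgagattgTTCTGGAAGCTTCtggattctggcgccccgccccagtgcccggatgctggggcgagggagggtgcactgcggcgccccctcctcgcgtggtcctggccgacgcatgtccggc
HSPD1, chr2:197499841-197500090, minus strand: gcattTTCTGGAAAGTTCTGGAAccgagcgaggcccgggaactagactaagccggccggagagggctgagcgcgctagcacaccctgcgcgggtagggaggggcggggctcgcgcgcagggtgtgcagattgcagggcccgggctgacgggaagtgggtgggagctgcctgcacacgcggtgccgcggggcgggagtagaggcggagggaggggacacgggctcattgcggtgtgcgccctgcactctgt
In HSPD1 both matches overlap, on opposite strands, 245 to 228 bases before the start. HSP90B1 held both of its matches at 194 to 176 and 89 to 71 bases before the start, and HSPA5 its single match at 66 to 48 bases. In DNAJA1 the match GAACTTTCCAGAA began at base 4 of the transcript.

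Of the 65 genes 53 had a signal at or above the array median on at least 3 of the 15 arrays and were tested among 12868 genes. The 12 that did not were DNAJB7, DNAJB8, DNAJC28, HSPA12B, HSPA1L, HSPA2, HSPA6, HSPB2, HSPB3, HSPB6, HSPB7 and HSPB9. HSPA6, a strictly stress-inducible HSP70 in human cells, read between 8.1 and 19.1 on all arrays. HSPA2, an HSP70 known from the testis, read between 0.9 and 11.6. A signal below the array median is not evidence that a gene was off.

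Between neighbouring times in induced cells, 10 of the 53 genes changed from t = 8 to t = 24, where 6.29 percent of all genes did, against 1 gene from t = 0 to t = 8 (2.1 percent of all genes) and 1 from t = 24 to t = 48 (4.04 percent). Differences here are in log2(signal + 5.16), a scale that understates the change of genes with low signals, and probe sets of different genes are not compared in level. At t = 24 against t = 0, 10 of the 53 genes were lower at a limma adjusted p under 0.05 and 4 were higher, while 4.87 percent and 5.96 percent of all genes tested were called in those directions. The 14 genes are 26.4 percent of the chaperone genes, and 10.8 percent of all genes were called. DNAJC15 is among the 4 higher, and it entered the test only through the induced groups in which it was high. At t = 8 against t = 0 a single gene, HSPA12A, was lower (0.995 percent of all genes). None was higher by limma at t = 8 against a background of 1.1 percent, with 3 genes higher at an unadjusted p under 0.05 and 1 higher when the fit let variance depend on signal. From t = 8 to t = 24 in induced cells, 7 genes fell and 3 rose, beside 2.84 and 3.46 percent of all genes. DNAJC15 is also among those 3. From t = 24 to t = 48, HSPA12A rose and no gene fell, beside 2.42 and 1.62 percent of all genes. There 3 genes were lower at an unadjusted p under 0.05, and 1 with the variance trend. The share of all genes at an unadjusted p was not counted. The unadjusted counts here and below therefore have no background and are not read as enrichment.

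At t = 48 against t = 0, 9 genes were lower and 5 higher in induced cells, where 8.2 and 9.93 percent of all genes were called, or 18.1 percent in either direction. In control cells at t = 48 against t = 0, DNAJB1 was lower and HSPA12A higher, beside 0.365 and 0.482 percent of all genes, or 0.847 percent in either direction. These comparisons use the same t = 0 arrays. In induced against control cells at t = 48, 4 genes were higher, all of the DNAJC class, and 5.31 percent of all genes were. None was lower by limma, beside 3.29 percent of all genes at the adjusted threshold. At an unadjusted p under 0.05, for which no share of all genes was counted, 9 were lower, and with the variance trend 1 was. The 4 of 53 equal 7.55 percent, and 8.6 percent of all genes were called in either direction. DNAJC15 is among the 4, and it entered the test only through the induced groups in which it was high. An F-test over the induced time course called 17 of the 53, against 20.2 percent of all genes, so over the whole course the share of chaperone genes called was 32.1 percent. DNAJC15 is among those 17 and among the 5 higher in induced cells at t = 48 than at t = 0.

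The median log2 difference of the 53 genes was −0.12 at t = 24 against t = 0, while that of all genes was −0.01. There 35 of the 53 lay below 0, beside 51.9 percent of all genes. From t = 8 to t = 24 the chaperone median was −0.15 and that of all genes −0.007, with 39 of the 53 below 0, beside 51.1 percent of all genes. At t = 48 the chaperone median was −0.05 in induced and −0.09 in control cells against t = 0, and −0.03 in induced against control cells. In control cells at t = 48 against t = 0, 33 of the 53 lay below 0, beside 51.0 percent of all genes. The count of genes called at t = 24 against t = 0 dropped to 8 without induced t = 24 replicate 1, the array with the weak bioC signal. At t = 48 against t = 0 it was 8 of 53 without t = 0 replicate 2 or without induced t = 48 replicate 2.

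**Figure D1:**
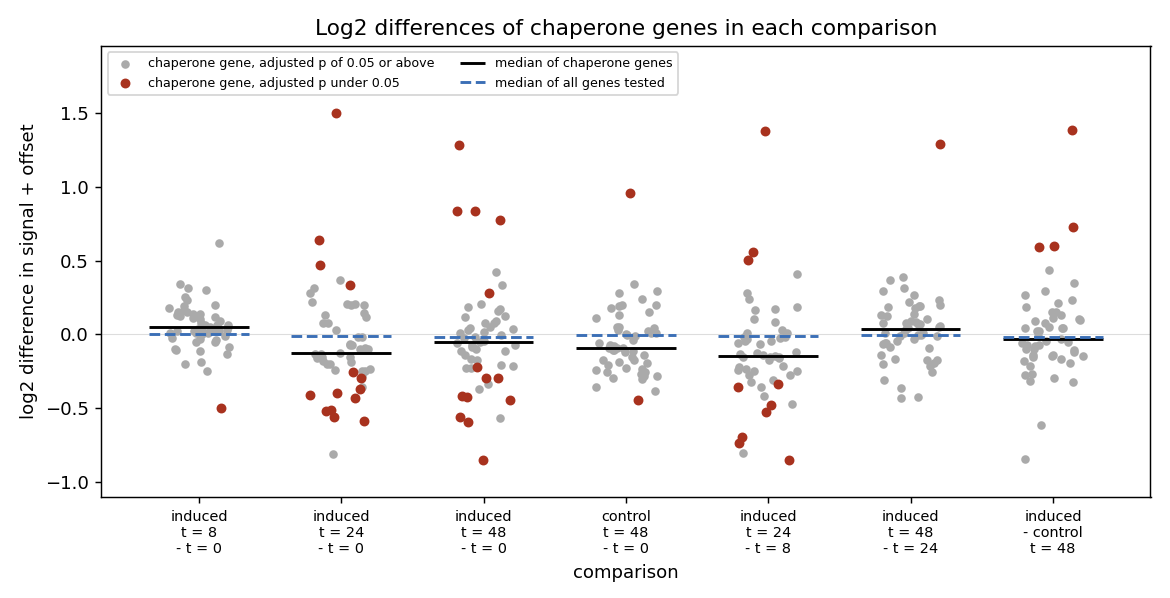
Log2 difference in signal plus offset (vertical axis) of the 53 chaperone genes tested, 1 point a gene, in 7 comparisons along the horizontal axis, with black lines at the chaperone median and dashed lines at the median of all genes. Red points passed an adjusted p of 0.05. The median lies at −0.12 for t = 24 against t = 0 and at −0.03 for induced against control cells at t = 48.

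**Figure D2:**
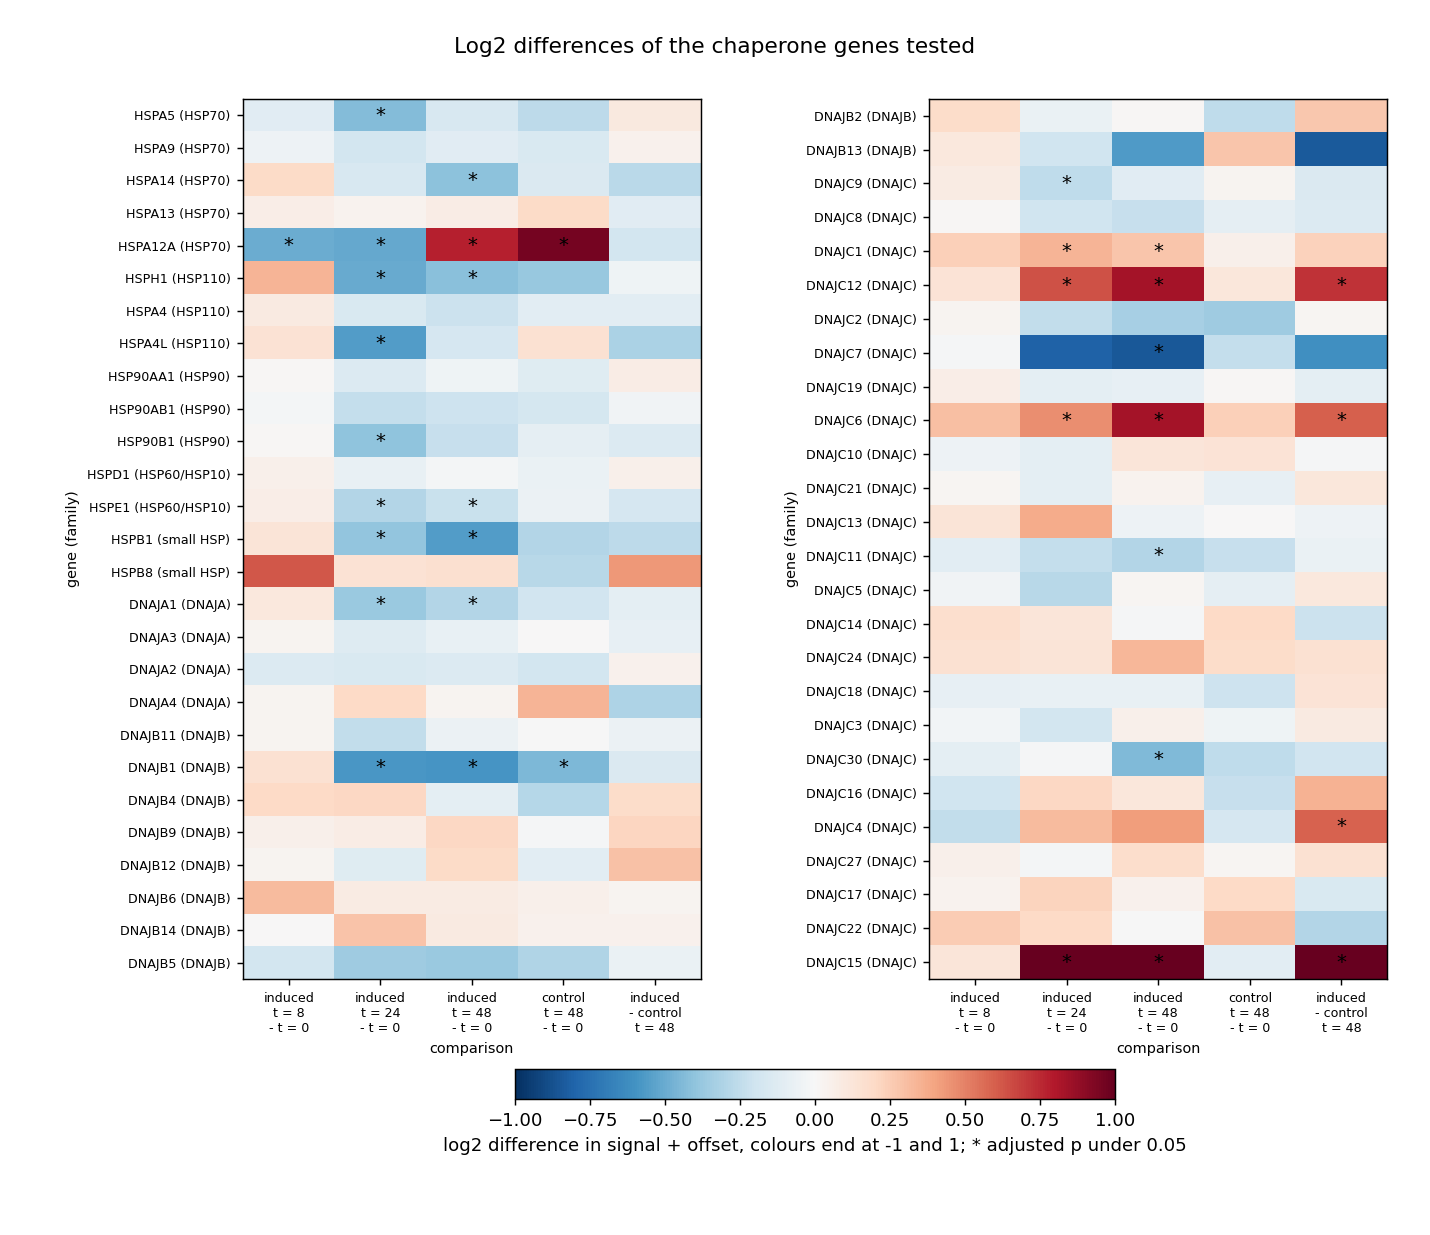
Log2 differences of each tested chaperone gene (rows, with the family in brackets) in 5 comparisons (columns), blue for lower and red for higher, with colours ending at −1 and 1. Asterisks mark an adjusted p under 0.05, which 10 genes reached downward and 4 upward at t = 24 against t = 0.

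Among the genes of the cytosolic HSP70 cycle, DNAJB1, HSPH1 and DNAJA1 fell between t = 8 and t = 24 and were still lower at t = 48 than at t = 0. DNAJB1 encodes the main stress-responsive J-domain partner of cytosolic HSP70. Its signals were 858.9, 847.1 and 858.6 at t = 0, 937.1, 941 and 972.2 at t = 8, 531.8, 540.4 and 641.5 at t = 24, and 577.5, 588 and 534 at t = 48 in induced cells, with 640.7, 658.8 and 581.6 in control cells at t = 48. The t = 24 and both t = 48 groups lay wholly below t = 0, and induced and control cells at t = 48 overlapped. Against t = 0 the log2 difference was −0.58 at t = 24 (standard error 0.083, limma adjusted p = 0.000692) and −0.59 at t = 48 in induced cells (adjusted p = 0.000492). From t = 8 to t = 24 it was −0.73 (adjusted p = 0.000412). Control cells at t = 48 differed from t = 0 by −0.45 (adjusted p = 0.0281), a call that was lost without any 1 of the 6 arrays of that comparison (adjusted p 0.0602 to 0.172) and in the fit with the replicate number as a block (adjusted p = 0.066). Induced and control cells at t = 48 differed by −0.14, with a 95 percent interval of −0.32 to 0.04 (adjusted p = 0.319).

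HSPH1 encodes the stress-inducible HSP110, an exchange factor for HSP70. Its signals were 2119.5, 2498.8 and 2135.1 at t = 0, 3038.8, 2784.9 and 2731.9 at t = 8, 1513.2, 1601.7 and 1619 at t = 24, and 1748.2, 1574 and 1709 at t = 48 in induced cells, with 1848.7, 1745.6 and 1590 in control cells at t = 48. All t = 8 arrays lay above all t = 0 arrays, by 0.34 on the log2 scale, which missed the threshold (adjusted p = 0.0787). From t = 8 to t = 24 the difference was −0.85 (standard error 0.088, limma adjusted p = 0.000203). Against t = 0 it was −0.51 at t = 24 (adjusted p = 0.00303) and −0.42 at t = 48 in induced cells (adjusted p = 0.00623), beside −0.38 in control cells at t = 48 (adjusted p = 0.0778). Induced and control cells at t = 48 overlapped, with a difference of −0.04 and an interval of −0.23 to 0.15. Of the other HSPH1 probe sets, one gave −0.60 at t = 24 (adjusted p = 0.0131) and −0.51 at t = 48 (adjusted p = 0.0196) against t = 0. The dimmer one, with a mean signal of 77.8, gave −0.40 (adjusted p = 0.107) and −0.14 (adjusted p = 0.544).

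DNAJA1 encodes an abundant cytosolic J-domain protein, and its transcript holds the heat shock element match given above. Its signals were 3074.2, 3127.9 and 3057.8 at t = 0, 3137.7, 3344.4 and 3496.3 at t = 8, 2289.5, 2417.5 and 2460.3 at t = 24, and 2496.9, 2579.9 and 2470.6 at t = 48 in induced cells, with 2628.1, 2747 and 2712.2 in control cells at t = 48. The t = 24 arrays were the lowest group and the t = 8 arrays the highest, with no overlap with t = 0 in either. The log2 difference was −0.48 from t = 8 to t = 24 (limma adjusted p = 0.00139), and against t = 0 it was −0.37 at t = 24 (adjusted p = 0.00305) and −0.29 at t = 48 in induced cells (adjusted p = 0.008). In control cells at t = 48 it was −0.20 against t = 0 (adjusted p = 0.24). Under quantile normalization the call at t = 48 was lost (adjusted p = 0.0708). The other DNAJA1 probe set gave −0.37 from t = 8 to t = 24 (adjusted p = 0.0187), −0.26 at t = 24 (adjusted p = 0.0516) and −0.17 at t = 48 (adjusted p = 0.153) against t = 0.

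HSPA4L, another HSP110, was low at t = 24 alone. It read 238.9, 202.5 and 275.2 at t = 0, 255.6, 262.5 and 267.8 at t = 8, 155.8, 168 and 155.6 at t = 24, and 217.3, 208 and 205.4 at t = 48 in induced cells, with 231.8, 279.4 and 282.3 in control cells at t = 48. No t = 24 array overlapped any other group. The difference at t = 24 was −0.56 against t = 0 (limma adjusted p = 0.00543) and −0.70 against t = 8 (adjusted p = 0.00284). From t = 24 to t = 48 it was 0.39, short of the threshold (adjusted p = 0.0696), and induced cells at t = 48 differed from control cells by −0.32, also short of it (adjusted p = 0.088), although those arrays did not overlap. The other HSPA4L probe set gave −0.41 at t = 24 against t = 0 (adjusted p = 0.116) and −0.44 against t = 8 (adjusted p = 0.121). HSPA4, the remaining HSP110, passed the F-test over the time course (adjusted p = 0.0271) and no single comparison, with −0.21 at t = 48 against t = 0 (adjusted p = 0.0571).

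Of the small heat shock proteins HSPB1 and HSPB8 were tested. HSPB1, or HSP27, an ATP-independent holdase that also binds actin, read 3430.3, 3658.4 and 3827.6 at t = 0, 4290.8, 3956.3 and 3704.3 at t = 8, 2537, 2874.5 and 2883.7 at t = 24, and 2634.6, 2474 and 2294.9 at t = 48 in induced cells, with 3213.4, 2899.5 and 2787.6 in control cells at t = 48. Every induced t = 24 and t = 48 array was below every t = 0 array. The difference was −0.53 from t = 8 to t = 24 (limma adjusted p = 0.00562) and −0.56 at t = 48 against t = 0 (adjusted p = 0.00131). At t = 24 against t = 0 it was −0.40 (adjusted p = 0.0151), a call lost without t = 0 replicate 3 (adjusted p = 0.0592) or induced t = 24 replicate 1 (adjusted p = 0.0596). Induced cells lay below control cells at t = 48 on all arrays, by −0.26 with an interval of −0.46 to −0.07, and this missed the threshold (adjusted p = 0.0967). HSPB8 read 2.5 to 29.8, reached the array median on 4 arrays and changed in no comparison.

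Of the mitochondrial chaperonin pair, HSPE1 passed the test and HSPD1 did not. HSPE1, the HSP10 lid of the chamber, read 3829.3, 3686.2 and 3737.7 at t = 0, 3851, 3978.8 and 3924 at t = 8, 2895.3, 3083 and 3198.1 at t = 24, and 3129.4, 3083 and 3449.4 at t = 48 in induced cells, with 3426.5, 3671.4 and 3725.6 in control cells at t = 48. It was lower at t = 24 than at t = 8 (−0.36, limma adjusted p = 0.0108) and than at t = 0 (−0.29, adjusted p = 0.018), and lower at t = 48 in induced cells than at t = 0 (−0.22, adjusted p = 0.0457). Under quantile normalization these were −0.23, −0.18 and −0.15 and passed no threshold (adjusted p 0.0912, 0.136 and 0.172). The t = 24 call against t = 0 was also lost without t = 0 replicate 1 or 3 or induced t = 24 replicate 1 (adjusted p 0.0516 to 0.0638), and the t = 48 call without any t = 0 array or without induced t = 48 replicate 1 or 2 (adjusted p 0.0811 to 0.139). HSPD1, the HSP60 ring, read 8074, 7836.3 and 7418.9 at t = 0, 8420.8, 8636.9 and 7186.4 at t = 8, 6698.6, 8249.3 and 7306.6 at t = 24, and 8879.7, 6985 and 7248.2 at t = 48 in induced cells, with 7132.2, 7820.7 and 7282.7 in control cells at t = 48. Its groups overlapped, with a t = 24 against t = 0 difference of −0.07 (interval −0.31 to 0.17), and the difference between HSPE1 and HSPD1 was not tested. HSPA9, the mitochondrial HSP70, read 1569.9, 1308.7 and 1261.1 at t = 24 against 1537.6, 1577 and 1566.7 at t = 0 (−0.18, adjusted p = 0.238).

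**Figure D3:**
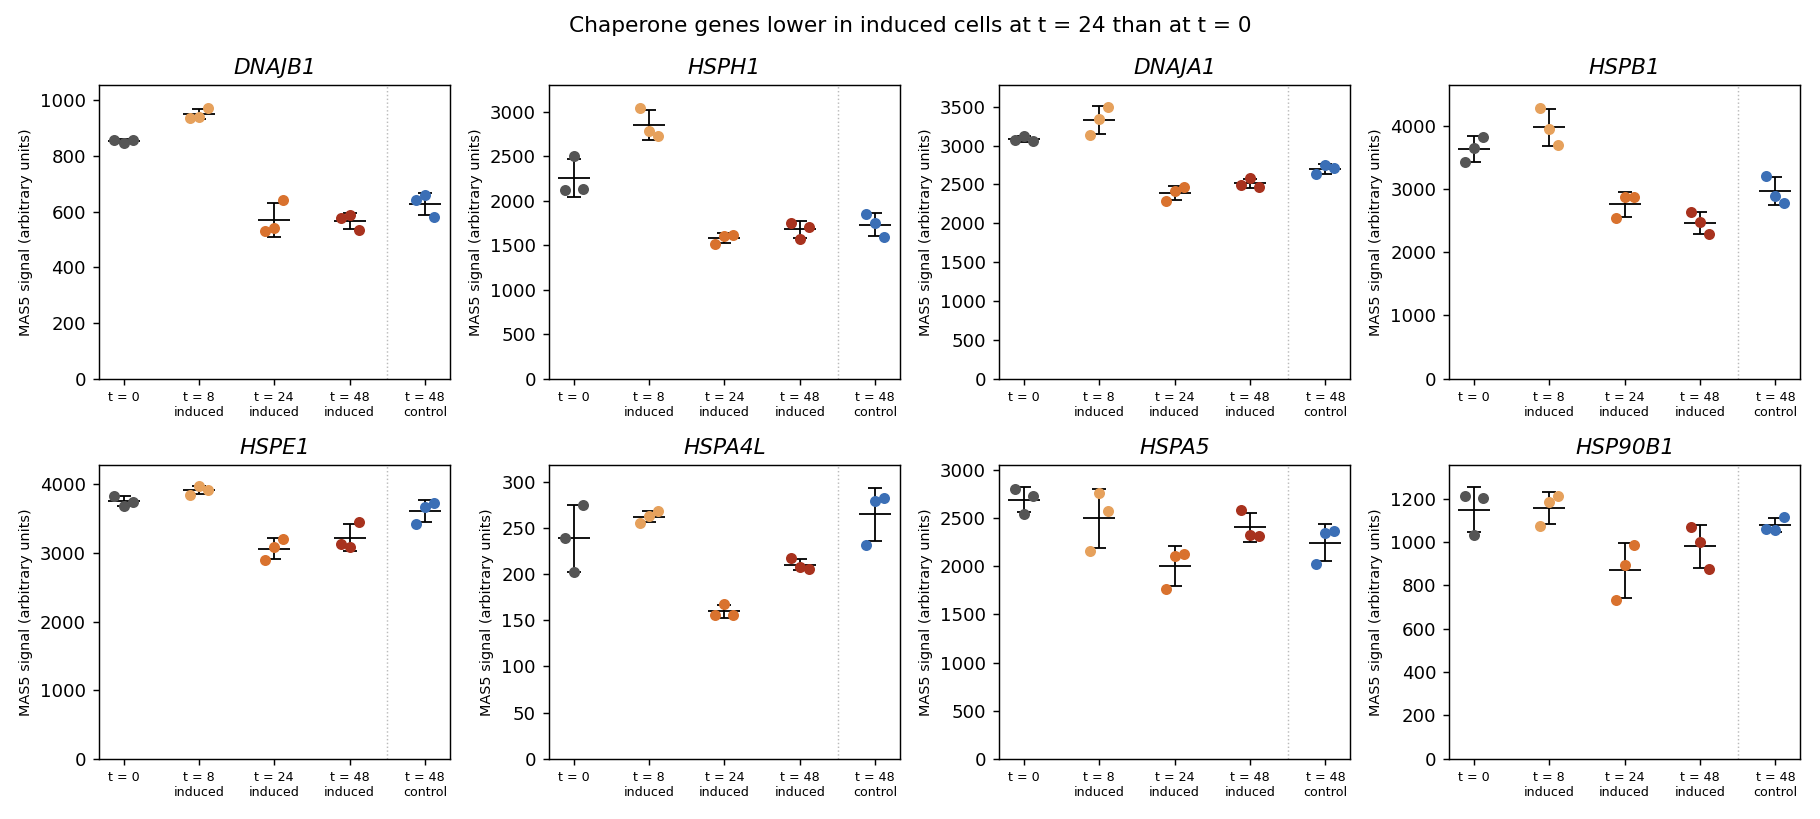
MAS5 signal in arbitrary units (vertical axes, from 0) of 8 of the 10 chaperone genes lower at t = 24 than at t = 0, by group along the horizontal axes. Points are arrays, and bars give the mean and SD of 3 arrays. For DNAJB1 the means are 571 at t = 24 against 855 at t = 0, and 567 in induced against 627 in control cells at t = 48.

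The cytosolic HSP90 genes passed the threshold in none of the 7 comparisons by limma, and at an unadjusted p under 0.05 HSP90AB1 did so in 3 of them. HSP90AA1, the stress-responsive HSP90, read 8942.6, 8773.7 and 7697.7 at t = 0, 9516, 8598.3 and 7579.9 at t = 8, 7774.1, 8240.5 and 7140.9 at t = 24, and 8984.6, 7125.5 and 8597.4 at t = 48 in induced cells, with 7877.7, 7958.1 and 7498.3 in control cells at t = 48. All groups overlapped. The difference at t = 24 against t = 0 was −0.13, with an interval of −0.37 to 0.10, and that of induced against control cells at t = 48 was 0.08, with an interval of −0.16 to 0.31. HSP90AB1, the constitutive form, read 5507.4, 6321.6 and 5693.6 at t = 0, 6181.7, 5772.9 and 5307.7 at t = 8, 4676.1, 5427 and 4734 at t = 24, and 5570.5, 4785.9 and 4845.5 at t = 48 in induced cells, with 5299.1, 5315.9 and 4903.7 in control cells at t = 48. The t = 24 and t = 0 arrays did not overlap, but the difference of −0.24 missed the threshold (limma adjusted p = 0.129, interval −0.45 to −0.04). Both genes, like HSPD1, have a heat shock element in the sequences above. The highest signal of any probe set on an array was between 9394.9 and 13303.5. HSP90AA1 and HSPD1 read not far below that, and whether signals so high still follow a change in RNA was not tested. The genes that fell from t = 8 to t = 24 include DNAJA1, with a match to the element in its window, and DNAJB1, HSPH1 and HSPB1, with no match. The search took only that exact string, so no match does not mean that a gene has no heat shock element. Whether the element had a part in the fall was not tested.

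**Figure D4:**
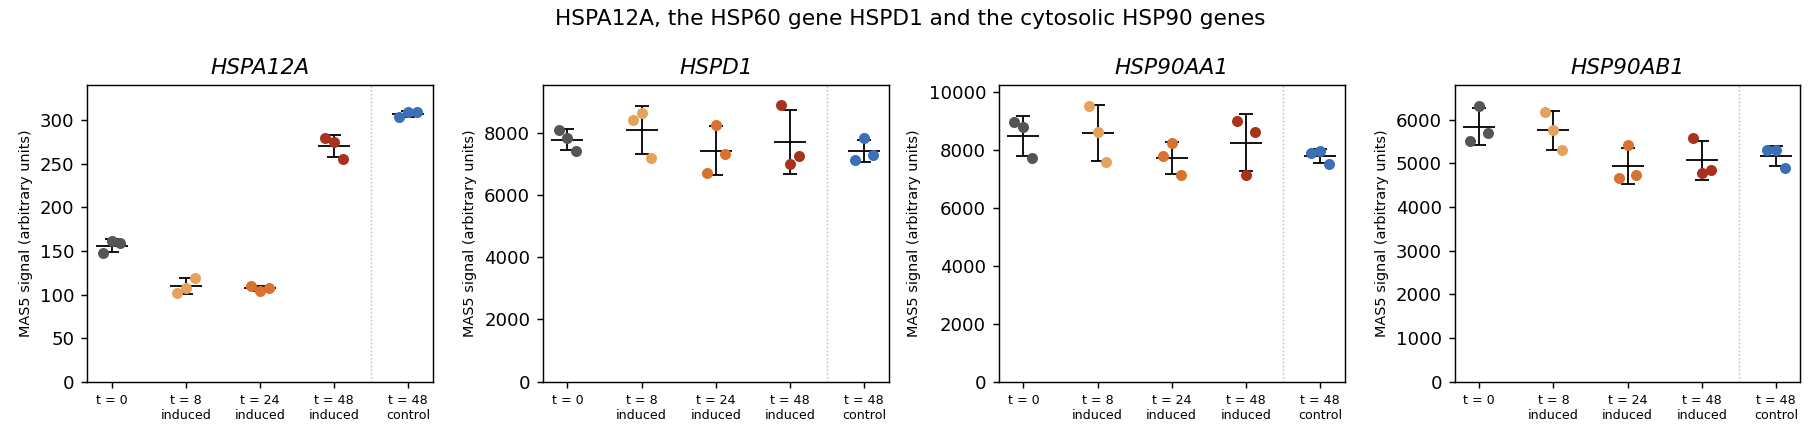
MAS5 signal in arbitrary units (vertical axes, from 0) of HSPA12A, HSPD1, HSP90AA1 and HSP90AB1 by group. Points are arrays, and bars give the mean and SD of 3 arrays. HSPA12A averages 270 in induced and 307 in control cells at t = 48, and the HSP90AA1 groups overlap.

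In the endoplasmic reticulum, HSPA5 and HSP90B1 were lower at t = 24 than at t = 0 and DNAJC1 was higher. HSPA5, or BiP, the HSP70 of that compartment, read 2799.7, 2546.2 and 2735.2 at t = 0, 2159.4, 2764.7 and 2572.4 at t = 8, 1759.5, 2110.9 and 2132.5 at t = 24, and 2582, 2327 and 2311 at t = 48 in induced cells, with 2025.9, 2346.1 and 2367.1 in control cells at t = 48. The t = 24 arrays lay below all t = 0 and t = 8 arrays. The difference at t = 24 against t = 0 was −0.43 (limma adjusted p = 0.0253), and the call was lost without t = 0 replicate 1 or 3 (adjusted p 0.0755 and 0.0736) or induced t = 24 replicate 1 (adjusted p = 0.0991). At t = 48 induced and control cells differed by 0.10, with an interval of −0.14 to 0.34. The other HSPA5 probe set, with a mean signal of 89.4, gave −0.24 at t = 24 against t = 0 (adjusted p = 0.244), and at t = 48 it was higher in induced cells than in control cells (0.48, adjusted p = 0.0286) and than at t = 0 (0.41, adjusted p = 0.0356).

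HSP90B1, the reticulum HSP90 known as GRP94, read 1214.2, 1031.4 and 1203.7 at t = 0, 1072.2, 1184.3 and 1210.5 at t = 8, 734.1, 892.9 and 984.7 at t = 24, and 1068.8, 1000.7 and 873.7 at t = 48 in induced cells, with 1061.2, 1057.8 and 1116.7 in control cells at t = 48. Its t = 24 difference from t = 0 was −0.41 (limma adjusted p = 0.0409), and the call was lost without t = 0 replicate 1 or 3 or induced t = 24 replicate 1 or 2 (adjusted p 0.0714 to 0.146) and with the replicate block (adjusted p = 0.0663). The other HSP90B1 probe set gave −0.21 at t = 24 against t = 0 (adjusted p = 0.681), and the mean of its probe sets gave −0.31 (adjusted p = 0.241). HSPA5 and HSP90B1 are the genes whose promoters hold the stress element. The J-domain partners DNAJB9, DNAJC3 and DNAJB11 did not pass. DNAJB9, an HSPA5 partner that aids the removal of misfolded proteins, read 208.3, 271.7 and 279.5 at t = 24 against 233, 222 and 259.7 at t = 0 (0.08, adjusted p = 0.768). DNAJC3, which restrains the kinase PERK, read 103.8, 107.9 and 101 at t = 24 against 130.8, 107.5 and 119.2 at t = 0 (−0.18, adjusted p = 0.359), and DNAJB11 differed by −0.25 (adjusted p = 0.299).

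DNAJC1, a membrane J-domain protein of the reticulum, read 606.4, 641.8 and 676.2 at t = 0, 753.4, 800.2 and 714 at t = 8, 795.9, 840.9 and 796.2 at t = 24, and 785.2, 793.6 and 760.6 at t = 48 in induced cells, with 621.1, 669.1 and 703.2 in control cells at t = 48. All induced arrays from t = 8 on lay above all t = 0 and all control arrays. The difference from t = 0 was 0.34 at t = 24 (limma adjusted p = 0.0121) and 0.28 at t = 48 (adjusted p = 0.0211). The t = 48 call was lost without t = 0 replicate 1 or 2 or induced t = 48 replicate 1 or 2 (adjusted p 0.0519 to 0.0731) and with arrays centred on the median (adjusted p = 0.0522). Induced cells exceeded control cells at t = 48 by 0.23, short of the threshold (adjusted p = 0.0768). Other DNAJC1 probe sets gave 0.24 and 0.16 at t = 24 against t = 0 and did not pass (adjusted p 0.114 and 0.507).

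The 4 genes higher in induced than in control cells at t = 48 were DNAJC12, DNAJC6, DNAJC4 and DNAJC15. DNAJC12 encodes a cytosolic co-chaperone of the aromatic amino acid hydroxylases, among them tyrosine hydroxylase, the rate-limiting enzyme of catecholamine synthesis. It read 477.5, 470.1 and 562.8 at t = 0, 606.2, 495.6 and 563 at t = 8, 720.2, 778.6 and 862.9 at t = 24, and 925.5, 940.7 and 835.9 at t = 48 in induced cells, with 466.7, 559.9 and 611 in control cells at t = 48. Induced t = 24 and t = 48 arrays were above every t = 0 and control array. The difference between induced and control cells was 0.72 (standard error 0.119, limma adjusted p = 0.00251), or 1.65-fold. Against t = 0 it was 0.64 at t = 24 (adjusted p = 0.00451) and 0.84 at t = 48 (adjusted p = 0.000544), beside 0.11 in control cells (adjusted p = 0.79). These 3 calls were kept without any single array, while that from t = 8 to t = 24 (0.50, adjusted p = 0.0287) was lost without induced t = 8 replicate 2 or 3 or induced t = 24 replicate 2 or 3 (adjusted p 0.0629 to 0.102). Another probe set of DNAJC12 gave 0.70 between induced and control cells (adjusted p = 0.0159), and a further one, with a mean signal of 26.1, gave 0.50 (adjusted p = 0.107). In that last probe set of DNAJC12 the differences were 0.10 at t = 24 (adjusted p = 0.77) and 0.21 at t = 48 (adjusted p = 0.445) against t = 0, and 0.09 from t = 8 to t = 24 (adjusted p = 0.813).

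DNAJC6 encodes auxilin, the neuronal J-domain protein that recruits HSC70 to strip clathrin from vesicles. It read 345.2, 338 and 351.9 at t = 0, 423.9, 375.3 and 486.2 at t = 8, 439.5, 481.3 and 519.1 at t = 24, and 654.9, 615.6 and 588.5 at t = 48 in induced cells, with 374.5, 425.5 and 425 in control cells at t = 48. All induced t = 48 arrays were above the arrays of every other group. The difference between induced and control cells was 0.60 (standard error 0.1, limma adjusted p = 0.00281), or 1.51-fold, and it passed without any single array. Against t = 0 it was 0.47 at t = 24 (adjusted p = 0.0104) and 0.83 at t = 48 (adjusted p = 0.000149), beside 0.24 in control cells (adjusted p = 0.391). The other vesicle J-domain genes, DNAJC5 and DNAJC13, differed by 0.10 and −0.05 between induced and control cells and passed no test.

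DNAJC4 read 62.2, 67 and 59.8 at t = 0, 45.3, 49.1 and 64.3 at t = 8, 89.9, 71.1 and 78.9 at t = 24, and 85.8, 85.8 and 86.3 at t = 48 in induced cells, with 47.8, 49 and 72 in control cells at t = 48. It was 0.59 higher in induced than in control cells (standard error 0.15, limma adjusted p = 0.0294). That call was lost without any of the 3 induced t = 48 arrays or without control replicate 1 or 2 (adjusted p 0.0702 to 0.114), and 3 other probe sets of DNAJC4 gave 0.33, 0.11 and 0.53 without passing (adjusted p 0.343, 0.756 and 0.141). The rise of 0.56 from t = 8 to t = 24 (adjusted p = 0.046) was lost without induced t = 8 replicate 1 or 2 or any induced t = 24 array (adjusted p 0.0573 to 0.161), and with arrays centred on the median (0.0619) or quantile normalized (0.0682). Another probe set of DNAJC4 gave −0.15 for that step (adjusted p = 0.666).

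DNAJC15, or MCJ, a J-domain protein of the inner mitochondrial membrane, was read near the array medians of 18.1 to 22.6. Its signals were 11.1, 1.9 and 3.5 at t = 0, 2, 10.8 and 6 at t = 8, 24.2, 24.6 and 20.3 at t = 24, and 18.9, 16.3 and 22.5 at t = 48 in induced cells, with 0.9, 6.8 and 5.9 in control cells at t = 48. It reached the median on 4 arrays, all of induced cells at t = 24 or t = 48, so it entered the test through the groups in which it was high. The fitted differences, 1.39 for induced against control cells at t = 48 (limma adjusted p = 0.0264), 1.28 at t = 48 (adjusted p = 0.0226) and 1.49 at t = 24 (adjusted p = 0.0151) against t = 0, and 1.37 from t = 8 to t = 24 (adjusted p = 0.0351), are given as a description. The call against control cells was lost without any of the 3 induced arrays or without control replicate 1 (adjusted p 0.0537 to 0.102). Among the 48 chaperone genes at or above the median on all 15 arrays, 3 were higher in induced than in control cells at t = 48.

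**Figure D5:**
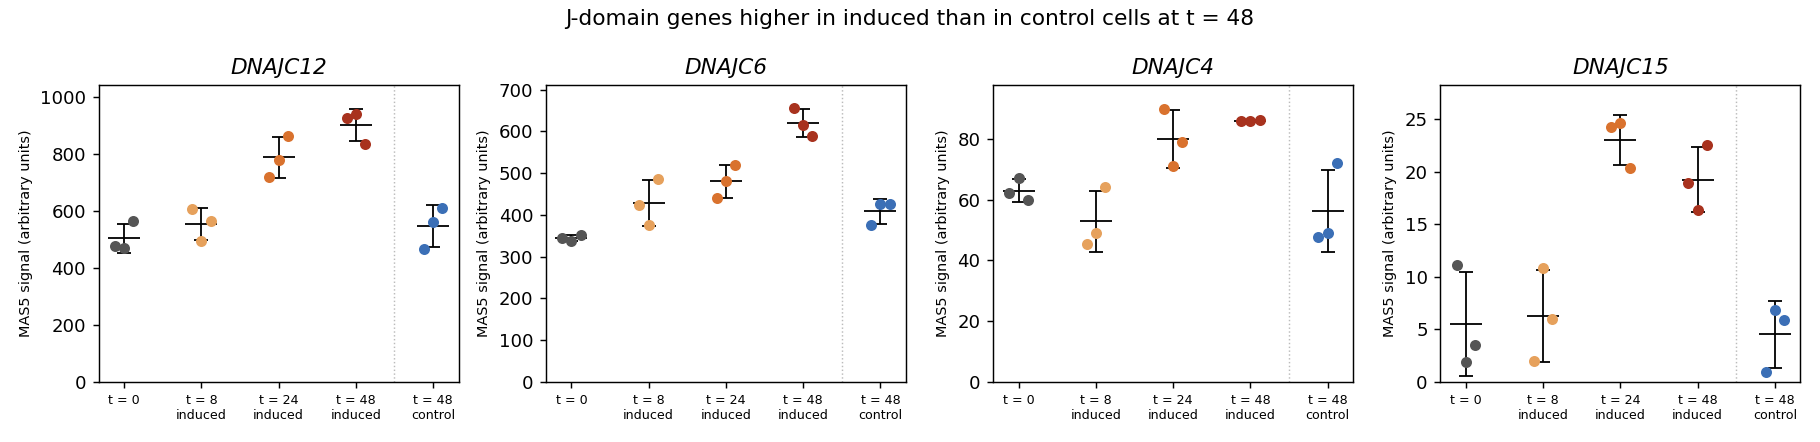
MAS5 signal in arbitrary units (vertical axes, from 0) of the 4 J-domain genes higher in induced than in control cells at t = 48, by group. Points are arrays, and bars give the mean and SD of 3 arrays. DNAJC12 averages 901 in induced and 546 in control cells at t = 48, and DNAJC6 averages 620 and 408.

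Other measures were compared between the same groups. The ratio of 3′ to 5′ ACTB signal was 1.52, 1.41 and 1.27 in induced against 1.22, 1.31 and 1.30 in control cells at t = 48, which overlap. For GAPDH that ratio was 1.03, 0.96 and 1.09 against 1.04, 0.97 and 0.98, which also overlap. The 18S rRNA control probe read 150.2 to 172.9 in induced against 76.7 to 94.9 in control cells. Of 10 neuroblastoma markers tested, 4 were higher in induced than in control cells at t = 48 and 1 lower. Of 9 fibroblast markers, all tested, 3 were higher at t = 48, and the summed signal of the list was 2110.7 to 2161.3 in induced against 1567.6 to 1686 in control cells. The median log2 difference of the list there was −0.04, so the sum does not stand for every marker. At t = 24 against t = 0 their sum was 2535.3 to 2582 against 1289.3 to 1419.9, with 4 of 9 higher and 0 lower by limma. LUM had a mean of 160.0 against 9.7 and COL1A1 of 918.6 against 349.6. By contrast, TAGLN averaged 18.2 against 37.4, THY1 88.6 against 90.9 and ACTA2 44.3 against 44.7. Of 5 epithelial markers 2 were tested and neither was at an unadjusted p under 0.05 in any of the 7 comparisons, of 5 blood and endothelial markers KDR alone passed, at t = 24, and of 4 Schwann cell markers none reached the filter. The part of these measures in the chaperone results was not tested.

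HSPA12A, a distant member of the HSP70 family known from neurons, was the 1 chaperone gene called at t = 8 and again at every later time against t = 0. It read 147.6, 161.5 and 158.9 at t = 0, 101.6, 107.2 and 119.4 at t = 8, 110.3, 104.6 and 107.7 at t = 24, and 279.8, 275.5 and 255.7 at t = 48 in induced cells, with 303.3, 309.5 and 308.9 in control cells at t = 48. Both t = 48 groups were above all other arrays, and the t = 8 and t = 24 groups below all t = 0 arrays. Against t = 0 the difference was −0.49 at t = 8 (limma adjusted p = 0.00296), −0.52 at t = 24 (adjusted p = 0.000704) and 0.77 at t = 48 in induced cells (adjusted p = 2.13e-05), with 0.96 in control cells at t = 48 (adjusted p = 0.000181). From t = 24 to t = 48 it rose by 1.29 in induced cells (adjusted p = 1.77e-06). Induced arrays were all below control arrays at t = 48, by −0.18 with an interval of −0.34 to −0.02, short of the threshold (adjusted p = 0.157). All its calls held without any single array.

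The remaining calls were smaller or rested on few arrays. DNAJC9, a J-domain histone chaperone, read 1035, 1129.5 and 1092 at t = 24 against 1296.9, 1283.2 and 1307.3 at t = 0 (−0.26, limma adjusted p = 0.0239). That call was lost without any t = 0 array or without induced t = 24 replicate 1 or 3 (adjusted p 0.0541 to 0.0784). From t = 8 to t = 24 DNAJC9 fell by 0.34 on the log2 scale (adjusted p = 0.0095). HSPA14, a ribosome-associated HSP70, read 441.8, 419.4 and 367.7 in induced cells at t = 48 against 522, 586.2 and 530.7 at t = 0 (−0.41, adjusted p = 0.0269), which was lost without t = 0 replicate 2 or 3 or induced t = 48 replicate 2 or 3 (adjusted p 0.0545 to 0.103). Other probe sets of HSPA14 gave −0.13 and −0.11 for that comparison and did not pass (adjusted p 0.372 and 0.551).

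DNAJC7, which binds HSP70 and HSP90 through TPR repeats, read 536.3, 388.3 and 274.5 in induced cells at t = 48 against 744.4, 676.6 and 677 at t = 0 (−0.85, limma adjusted p = 0.0404). At t = 24 it read 272.8, 376.9 and 605.3, and the lowest value of each induced group came from the array with a weak bioC signal. Without both of those arrays the t = 48 difference was −0.61 (adjusted p = 0.0674). Without t = 0 replicate 1, 2 or 3 or induced t = 48 replicate 2 or 3 singly the adjusted p was 0.0819 to 0.155. Other probe sets of DNAJC7 gave 0.24 and 0.16, in the opposite direction.

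The mitochondrial J-domain genes DNAJC11 and DNAJC30 passed at t = 48 against t = 0 in induced cells. DNAJC11, which associates with the inner membrane organising complex, read 222.4, 214.7 and 185 against 261.9, 264.5 and 238.9 (−0.30, limma adjusted p = 0.0474). DNAJC30 read 93.9, 80.7 and 69.3 against 125.2, 113.3 and 97.9 (−0.44, adjusted p = 0.031), and another probe set of it gave 0.17 (adjusted p = 0.598). The DNAJC11 call was lost without any t = 0 array or induced t = 48 replicate 2 or 3 (adjusted p 0.0567 to 0.171), and that of DNAJC30 without t = 0 replicate 1 or 2 or induced t = 48 replicate 2 or 3 (adjusted p 0.0736 to 0.12).

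By compartment, 26 genes of the cytosol and nucleus were tested, of which 7 were lower and 1 higher at t = 24 against t = 0, where 4.87 percent of all genes were lower and 5.96 percent higher. Of 12 genes of the endoplasmic reticulum 2 were lower and 1 higher, and of 8 mitochondrial genes 1 was lower and 1 higher. The higher mitochondrial gene was DNAJC15, which entered the test through the groups in which it was high. By family, 2 of 5 HSP70 genes, 2 of 3 HSP110 genes, 1 of 3 HSP90 genes, 1 of 4 DNAJA genes and 1 of 10 DNAJB genes were lower. So were 1 of 2 small heat shock protein genes and 1 of 2 genes of the HSPD1 and HSPE1 pair. The 24 DNAJC genes tested had 1 lower and 4 higher, with DNAJC15 among the 4. Counts of 1 or 2 in so few genes are too small to be set against that background. Of the 10 DNAJB genes tested DNAJB1 alone passed, while 3 were at an unadjusted p under 0.05 at t = 24 against t = 0. DNAJB13 had the lowest difference of any tested chaperone gene between induced and control cells, −0.84, which missed the threshold (limma adjusted p = 0.0897) with signals of 23.6, 25.4 and 9.7 in induced against 38.6, 37.4 and 35.2 in control cells. The other DNAJB13 probe set gave 0.11 (adjusted p = 0.883).

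Genes that work with these chaperones were read from 6 lists, whose counts stand beside backgrounds of 4.87 percent lower and 5.96 percent higher at t = 24 against t = 0. Of 12 HSP90 co-chaperones tested, 3 were lower and 1 higher at t = 24 against t = 0. STIP1, which bridges HSP70 and HSP90, averaged 1403.2 at t = 24 against 1962.6 at t = 0 (−0.48, limma adjusted p = 0.000465). PTGES3, or p23, differed by −0.30 (adjusted p = 0.0179) and the cyclophilin PPID by −0.24 (adjusted p = 0.0357). The counts at t = 48 against t = 0 were also 3 lower and 1 higher, where 8.2 percent of all genes were lower and 9.93 percent higher. AHSA2P, a pseudogene by its symbol, was the 1 entry of this list higher in induced than in control cells at t = 48 (0.39, adjusted p = 0.0238), beside 5.31 percent of all genes.

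Of 11 BAG proteins and nucleotide exchange factors, BAG2 and BAG3 were lower at t = 24 than at t = 0. BAG2, which restrains the ubiquitin ligase CHIP, averaged 313.5 at t = 24 against 585.5 at t = 0 (−0.89, limma adjusted p = 4.19e-05) and 269.8 in induced against 478.5 in control cells at t = 48 (−0.81, adjusted p = 0.000115). BAG3, a target of HSF1 that pairs with HSPB8, differed by −0.27 at t = 24 against t = 0 (adjusted p = 0.0473) and by −0.52 from t = 8 to t = 24 (adjusted p = 0.00285). At t = 48 against t = 0, 2 of the 11 were lower, beside 8.2 percent of all genes.

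Of 9 heat shock factors and co-chaperones tested none passed at t = 24 against t = 0 by limma and 0 were at an unadjusted p under 0.05. SERPINH1, the collagen chaperone HSP47, was higher at t = 8 (0.34, adjusted p = 0.0474) and lower at t = 48 in induced cells (−0.44, adjusted p = 0.00251) than at t = 0. HSF1 itself differed by −0.04 at t = 24 against t = 0 (adjusted p = 0.88). Of 23 endoplasmic reticulum folding and stress genes tested, 2 were lower at t = 24 against t = 0, SDF2L1 (−0.97, adjusted p = 0.00328) and MANF (−0.71, adjusted p = 0.000856). At t = 48 against t = 0, 4 were lower and 3 higher, beside 8.2 and 9.93 percent of all genes, and ATF6, a sensor of that response, was higher in induced than in control cells (0.35, adjusted p = 0.00855). Of 12 subunits of the cytosolic chaperonin and prefoldin 2 were lower at t = 48 against t = 0, beside the same 8.2 percent. Of 11 mitochondrial proteostasis genes, CLPX was higher (0.52, adjusted p = 0.00623) and TRAP1 lower (−0.23, adjusted p = 0.033) at t = 24 against t = 0. In control cells at t = 48 against t = 0, none of the 78 genes of these 6 lists passed by limma and 9 were at an unadjusted p under 0.05, while 0.847 percent of all genes passed, so a count of 0 is near the background.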

How the data were processed

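Total RNA of IMR32 cells was measured on 15 arrays in 5 groups of 3. The authors deposited linear intensities, for which the submitters' processing notes name MAS5 and GCOS without versions. With 2 percent of probe sets trimmed from either end, every array had a mean of 100.01, so arrays had been scaled as a whole and unequal spread at low signals was not removed. Precision is limited by the number of arrays.

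Of 54675 probe sets, 62 were array controls, 41091 had 1 symbol in the platform annotation, 1801 had several and 11721 were not listed there. Of those with 1 symbol, 41037 matched the RefSeq gene table of GRCh38.p14. No symbol was taken from probe sets with several, which left out 13 that name a gene of these families. An offset of 5.16, the mean lower quartile of signal, was added before log2. A gene was tested if at least 3 of 15 arrays read it at or above their own median (12868 genes), each read from the probe set with the highest mean signal.

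Differences were tested two-sided with lmFit and eBayes of limma 3.58.1 under R 4.3.3 (5 group means, with the spread estimated from all arrays), with Benjamini-Hochberg adjustment over the 12868 genes and a threshold of 0.05. The named genes are those that pass in at least 1 of 7 comparisons plus fixed chaperones of known role, and up to 4 genes of each other list. The family and its gene lists were chosen with earlier results of these data known. Data were simulated for induced against control cells at t = 48 over 12868 genes, of which 200 were changed. Noise was independent and normal, and all other means were equal across groups. Of genes changed by a log2 of 1, 71 percent were called, and of those changed by 0.5, 24 percent, and 6.86 percent of calls were unchanged genes. In the data 1107 genes were called in that comparison, so these shares hold for the simulated setting and may differ in the data. Values of a gene's other probe sets come from a fit over all probe sets that pass the filter, with adjustment over those. Promoters came from RefSeq, GRCh38.p14. Alternatives covered the offset, the scaling, the filter, the probe set, how variance was modelled, which arrays were fitted, the threshold and the replicate block. No 2 arrays held identical values. Figures were drawn with matplotlib 3.10.9.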

Additional observations from a re-analysis of the deposited data

How the results depend on the processing

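The arrays of 3 per group limit every count, and genes with signals near the array median, such as DNAJC15, have only a coarse level. Counts of chaperone genes called, out of 53 unless the filter changed, moved by more than 1.5 times as follows, and the cause was not tested where the setting itself does not show it. With an offset of 32 the step from t = 24 to t = 48 gave 3 genes, with quantile normalization 2, with the median reached on all arrays 4, with the mean of probe sets 3, with the variance trend 4 and with the replicate block 2, against 1 as reported. Without the filter, which adds genes to the adjustment, induced against control cells at t = 48 gave 2, t = 48 against t = 0 gave 8 and control cells against t = 0 gave 1. Control cells against t = 0 also gave 1 with the mean of probe sets, with the replicate block and at an adjusted p under 0.01. The variance trend gave 2 at t = 8 against t = 0. With the compared groups alone, which leaves few degrees of freedom, the counts were 0 at t = 8 (4 at an unadjusted p under 0.05 in the fit to all arrays), 3 at t = 24 and 6 at t = 48 against t = 0, 0 in control cells against t = 0 (10 unadjusted in the fit to all arrays), and 3 from t = 8 to t = 24. Without both arrays with weak bioC, induced against control cells gave 2. At an adjusted p under 0.01 the counts were 2 for induced against control cells, 6 at t = 24, 7 at t = 48, 6 from t = 8 to t = 24, and 9 in the F-test.

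Leaving out each array in turn gave 2 to 4 genes for induced against control cells at t = 48, 1 to 2 at t = 8, 8 to 14 at t = 24 and 8 to 11 at t = 48 against t = 0, 1 to 1 in control cells against t = 0, 7 to 9 from t = 8 to t = 24, 1 to 1 from t = 24 to t = 48, and 13 to 18 in the F-test. Scaling moved the median of all genes by at most 0.06 on the log2 scale. Centred on array medians, 4 genes were higher and 12 lower at t = 48 against t = 0, against 5 and 9 as deposited. From t = 8 to t = 24 the split was 2 higher and 9 lower when centred and 1 and 6 when quantile normalized, against 3 and 7. Other probe sets of the same gene, adjusted over all probe sets that pass the filter, gave the call again in 10 cases, the same direction without passing in 30, and the opposite sign in 5: DNAJC9 at t = 24 (0.0026), DNAJC30 (0.17) and DNAJC7 (0.24 and 0.16) at t = 48 against t = 0, and DNAJC4 from t = 8 to t = 24 (−0.15). Of single-gene calls under the other settings, 457 kept and 91 lost significance and 0 reversed. Same-numbered replicates did not deviate together (correlations −0.28 to 0.12), so the replicate number was not taken as pairing samples. With the replicate block the counts were 4 for induced against control cells, 1, 13 and 12 at t = 8, t = 24 and t = 48 against t = 0, and 8 from t = 8 to t = 24.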
